A study of Xenopus laevis with 9 samples.

Results

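Among the transcripts that set the *Xenopus laevis* lens apart from the cornea, 6 genes outside the crystallin family with a strong signal in whole lens are described here: lim2.L, MGC84384 (a relative of lim2), celf1.L, celf1.S, glb1.L and birc7-b. Every probeset of the Affymetrix *Xenopus laevis* GeneChip that is annotated with 1 of these symbols alone was taken, which gave 7 probesets of 15476, and 6 genes of 7527 with a symbol when homoeologs are counted apart. They were chosen by their intensity in lens against cornea, so the contrasts of lens with cornea are given below as a description, without a test. Other genes outside the crystallin family had a signal within the range of the members, such as hao2.S, with a mean intensity of 285 in lens and 2.71 in sham operated cornea. Lens (L1, L2 and L3) came from stage 50 wildtype tadpoles in pools of 5 lenses. Corneas undergoing cornea to lens transdifferentiation, or CLT (R1, R2 and R3), were collected 3 days after the lens was taken out, and sham operated corneas (S1, S3 and S4) 3 days after the cornea had been lifted with the lens left in place. Each cornea array held a pool of 7 to 8 corneas. These pool sizes are those of the sample labels, and the study's methods give larger groups. Not every eye forms a new lens after this operation, a pool averages over eyes that may differ in their progress, and corneas were cut out with some epidermis. The lenses of L were those removed from the tadpoles that later gave R.

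The vertebrate lens is built of fibre cells that elongate, lose their organelles and pack their cytoplasm with crystallins. LIM2, also called MP20, is a membrane protein of the junctions between fibre cells, from the tetraspan superfamily that also holds PMP22 and the claudins, and mutations in it are known from human cataract. CELF1, known in *Xenopus* as EDEN-BP and earlier as CUGBP1, binds GU-rich elements in messenger RNA and promotes shortening of the poly(A) tail. GLB1 is the lysosomal β-galactosidase, which removes terminal galactose from gangliosides and keratan sulfate. BIRC7, or livin, belongs to the inhibitor of apoptosis proteins, which bind caspases. *X. laevis* is an allotetraploid, and the suffixes L and S mark the copies (homoeologs) of a gene on its long and short chromosome sets.

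By RefSeq annotation of the assembly Xenopus_laevis_v10.1, lim2.L lies on chromosome 7L, 5 genes from usf2.L, and MGC84384 lies on chromosome 7S, 3 genes from usf2.S. The celf1 homoeologs share a neighbour as well, since celf1.L on chromosome 4L follows rapsn.L and celf1.S on chromosome 4S follows rapsn.S. The gene glb1.L is on chromosome 9_10L between ankzf1.L and stk16.L. The gene identifier of birc7-b had no match there, and its name is listed as a synonym of birc7.S, a gene with a separate probeset. For a pair of the members, the study designed real-time PCR primers on the same source sequence as the probeset. They are shown because these probesets and the study's PCR name the same source sequence. Where the primers bind, and whether they tell the homoeologs apart, was not tested. They are in lower case throughout, 5′ to 3′.
Cugbp1b (celf1.S, second probeset) forward: aggaaggtgtgcagaatagc
Cugbp1b (celf1.S, second probeset) reverse: ttgacactgaccagccttag
Glb1 (glb1.L) forward: tctaagcctgccacagtgga
Glb1 (glb1.L) reverse: ggccagtacctacctacatt

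All values are linear intensities from robust multi-array averaging (RMA), which has no unit, and the array medians ran from 2.99 to 3.29. The upper quartiles were 8.99 to 9.86 in L, 17.8 to 20.1 in R and 17.5 to 20.4 in S, so stronger probesets tended to read lower in L. The level below which 5% of the probesets of an array lie, the 5th percentile, was 0.984 to 1.06, and a fold against a group under it is given as a lower bound. Before the members are read, the tissue labels were checked. All 11 measured crystallins were higher in L than in S (limma, adjusted p under 0.05), with summed intensities of 11723 to 12341 in L and 12.7 to 18.1 in S, and all 14 epithelial markers were lower (summed intensities of 109 to 129 in L and 2444 to 2853 in S). Added spike-in controls read 0.35 higher on the log2 scale in L than in S. The R arrays differed among themselves: the summed intensity of 13 retina markers was 108 in R1, 525 in R2 and 23.7 in R3, against 13.8 to 14.1 in S and 116 to 288 in L. The sums in L include nrl.S, which alone read 69.6 ± 3.11 in L, 4.49 ± 1.92 in R and 2.20 ± 0.137 in S (SD, n = 3). Whether its lens signal comes from retina was not tested, so the L sums are no measure of retina. S4 lay nearly at the mean of S1 and S3 (variance ratio 0.232, where independent errors give 0.25 or more), so the spread of S may be understated. Every p-value measures only the spread between these pools, 3 to a group.

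**Figure D1:**
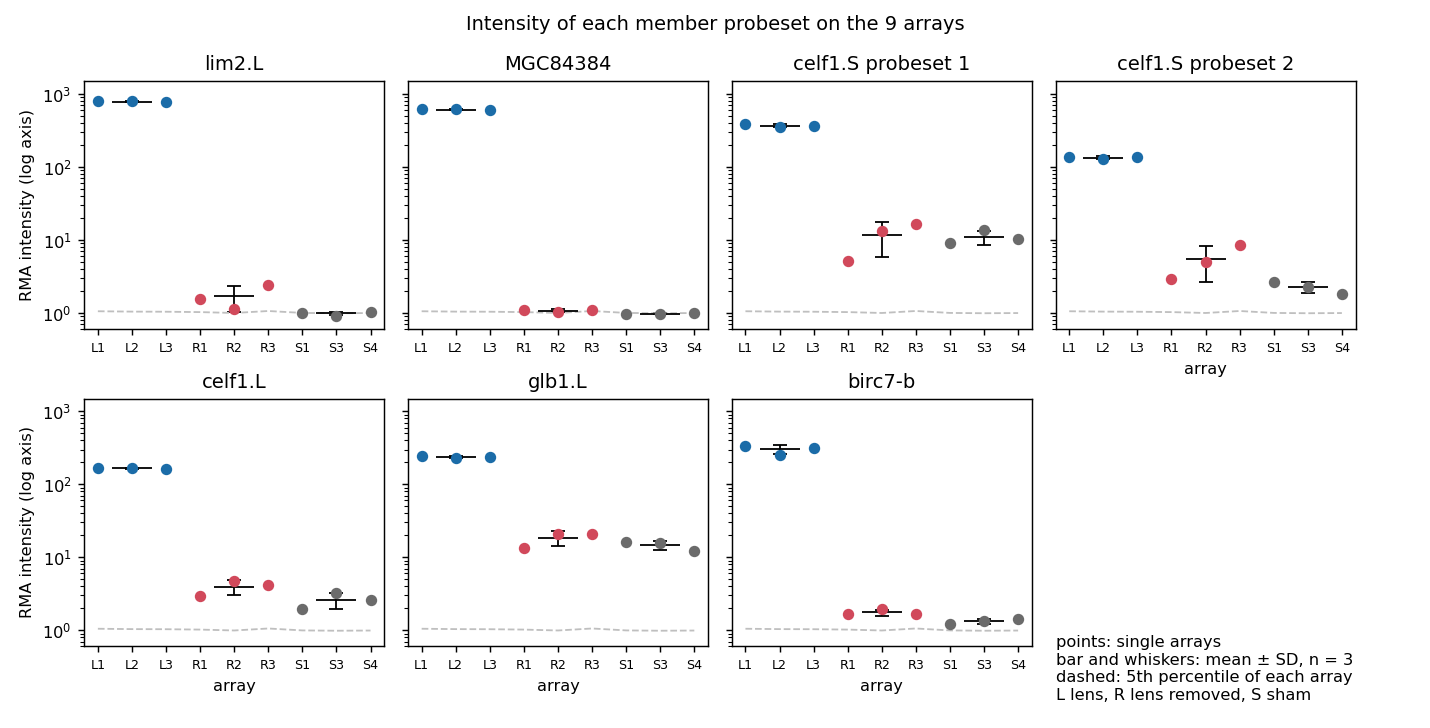
RMA intensity (log axis) of the 7 member probesets on the 9 arrays, with points for single arrays, bars and whiskers for the group mean ± SD (n = 3) and a dashed line at the 5th percentile of each array. The lens arrays sit far above both kinds of cornea in every panel, from 128 to 806, and lim2.L and MGC84384 lie at the dashed line in the sham operated corneas.

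The lens fibre membrane gene lim2.L was strong in lens and at the lower end of the array in sham operated cornea. Its probeset read 788, 806 and 764 in L1, L2 and L3. The sham operated corneas read 0.984, 0.914 and 1.03 in S1, S3 and S4, which is under the 5th percentile on 2 of those 3 arrays. Lens was therefore at least 784-fold above sham operated cornea, where the means were 786 ± 21.0 and 0.976 ± 0.0591 (SD, n = 3). Corneas undergoing CLT read 1.52 in R1, 1.13 in R2 and 2.39 in R3, so that all R arrays were above all S arrays while the R mean was only 0.213% of the lens mean. In lens the 3 pools differed by little, with a coefficient of variation of 2.67%.

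MGC84384, which has a place on chromosome 7S near usf2.S much like that of lim2.L on 7L, gave a similar picture in lens and a flatter one in cornea. The lens arrays read 614, 611 and 594, with a mean of 606 ± 10.4 (SD, n = 3). In S1, S3 and S4 the values were 0.954, 0.973 and 0.994, again below the 5th percentile on 2 arrays, which makes the lens at least 612-fold higher. In R the values were 1.09, 1.01 and 1.09, all above the highest S value but no more than 0.180% of the lens mean. As with lim2.L, R2 was the lowest of the R arrays. The 5th percentile, which these values lie close to, was lowest in R2 as well (1.02, 0.991 and 1.06 in R1, R2 and R3).

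The RNA-binding protein gene celf1.S is covered by a pair of probesets, and these disagreed about the cornea. The first, with the higher mean, read 383, 354 and 360 in lens, 5.16, 13.0 and 16.5 in R1, R2 and R3, and 8.97, 13.7 and 10.2 in S1, S3 and S4. The second, which has the same source sequence as the Cugbp1b primers, read 135, 128 and 138 in lens, 2.88, 4.97 and 8.36 in R and 2.61, 2.29 and 1.83 in S. R and S overlapped on the first, because R1 lay below all S arrays and S3 above R1 and R2, whereas on the second every R array was above every S array. Lens was 33.9-fold above sham operated cornea on the first probeset and 60.3-fold on the second, and 35.3-fold and 27.2-fold above corneas undergoing CLT. On both, R3 was the highest and R1 the lowest of the R arrays. R3 reached 6.24% of the lens mean on the second.

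The other homoeolog, celf1.L, read 170, 165 and 162 in lens, a mean of 166 ± 4.13 (SD, n = 3). In corneas undergoing CLT it read 2.94 in R1, 4.66 in R2 and 4.20 in R3, and in sham operated corneas 1.96, 3.25 and 2.61, so R1 lay within the range of S. Lens was 64.8-fold above S and 42.9-fold above R. The R against S change of the homoeologs was compared within arrays, as the log2 difference between the first celf1.S probeset and celf1.L. In R it averaged 1.42 ± 0.584 and in S 2.08 ± 0.117 (SD, 3 arrays each). The change from S to R was -0.65, for which a two-sided exact permutation test gave p = 0.2, where 3 arrays against 3 cannot go below 0.1. With the second celf1.S probeset, a choice made after the data were seen, the sign turned to 0.55 (exact permutation p = 0.3), so the homoeologs were not shown to differ in their change. Whether a probeset also binds the transcript of the other homoeolog was not tested.

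The lysosomal β-galactosidase gene glb1.L was well above the 5th percentile in every cornea array, as the first celf1.S probeset was. It read 241, 229 and 237 in lens, 13.4, 21.1 and 21.0 in R1, R2 and R3, and 16.0, 15.7 and 12.3 in S1, S3 and S4. R2 and R3 were above all S arrays and R1 was below S1 and S3. Lens was 16.2-fold above S and 13.0-fold above R, the smallest steps among the 7 probesets, and the R mean was 7.86% of the lens mean. The lens pools lay within a coefficient of variation of 2.75%.

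The apoptosis inhibitor gene birc7-b varied most between lens pools. Its lens arrays read 336, 256 and 311, a mean of 301 ± 40.8 (SD, n = 3) with a coefficient of variation of 13.6%, against 1.72% to 4.17% for the other 6 probesets. In R it read 1.66, 1.94 and 1.65 and in S 1.24, 1.32 and 1.42, so all R arrays were above all S arrays by a narrow margin. Lens was 226-fold above S and 171-fold above R. These folds rest on weak cornea values, which lay above the 5th percentile but below the median of every cornea array. The separate birc7.S probeset, which is no member, shared the lens level in kind, with 33.7, 29.1 and 37.3 in L and 1.75, 1.62 and 1.75 in S. On the log2 scale L exceeded S by 4.28 there (limma, adjusted p = 1.08e-07) and R exceeded S by 0.16 (adjusted p = 0.709). L2 was the lowest lens array on both probesets.

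In every member the order of the groups was lens far above both corneas, and L overlapped with neither R nor S. Across all probesets such a gap upward was found in 31.5% against S and in 23.2% against R, and 22.9% were called higher in L than in S and 18.6% higher in L than in R (limma, adjusted p under 0.05). These contrasts chose the members, so nothing is read from their agreement. Between R and S the order was less clear. R lay wholly above S in 4 of the 7 probesets (lim2.L, MGC84384, the second of celf1.S and birc7-b), where 12.3% of all probesets showed this. R and S overlapped in the first of celf1.S, celf1.L and glb1.L. For MGC84384 both groups lay at the lower end of the array, at 1.01 to 1.09 in R and 0.954 to 0.994 in S. The S values of lim2.L lay there too, and its lowest R value was 1.13 against a highest S value of 1.03. The study sorted probesets for an R mean above the S arrays before it reached lim2, its relative, celf1 and glb1. The share of 4 in 7 is therefore no fair comparison with the 12.3%. In bulk tissue, a larger share of cells with a transcript and more transcript per cell cannot be told apart.

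Whether corneas undergoing CLT differed from sham operated corneas in these genes was tested in 1 limma fit over all probesets. None of the 7 member probesets passed at an adjusted p of 0.05, where 1.12% of all probesets did, and 4 had an unadjusted p under 0.05, as did 14.5% of all probesets. The largest difference belonged to the second celf1.S probeset, at 1.15 on the log2 scale (95% interval 0.39 to 1.91, adjusted p = 0.167), and 366 probesets of the array had a larger one. For lim2.L it was 0.71 (0.15 to 1.28, adjusted p = 0.238), from S values that lie at the lower end of the array. The next were celf1.L with 0.60 (0.07 to 1.13, adjusted p = 0.285) and birc7-b with 0.40 (0.03 to 0.78, adjusted p = 0.310). The values of birc7-b lay below the median of every cornea array. For glb1.L the estimate was 0.31 (-0.17 to 0.80, adjusted p = 0.539) and for MGC84384 it was 0.13 (-0.18 to 0.44, adjusted p = 0.707). The first celf1.S probeset stood at -0.06 (-0.92 to 0.81, adjusted p = 0.965), so its interval overlaps that of the second. The fit shares 1 spread over the 3 groups, and celf1.L, for example, varied less in L (log2 SD 0.036) than in R (0.348) or S (0.367). With only R and S in the limma fit, its unadjusted p was 0.060. That of lim2.L was then 0.042 and that of the second celf1.S probeset 0.0235. So the number of probesets with an unadjusted p under 0.05 depends on the lens arrays. The median difference of the 7 probesets was 0.40, beside 0.06 over all probesets. The study first sorted probesets for an R mean above the S arrays, and then reached lim2, its relative, celf1 and glb1 by likeness to the crystallins over the 9 arrays, so the sign of these differences is not independent of how the genes were found.

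**Figure D2:**
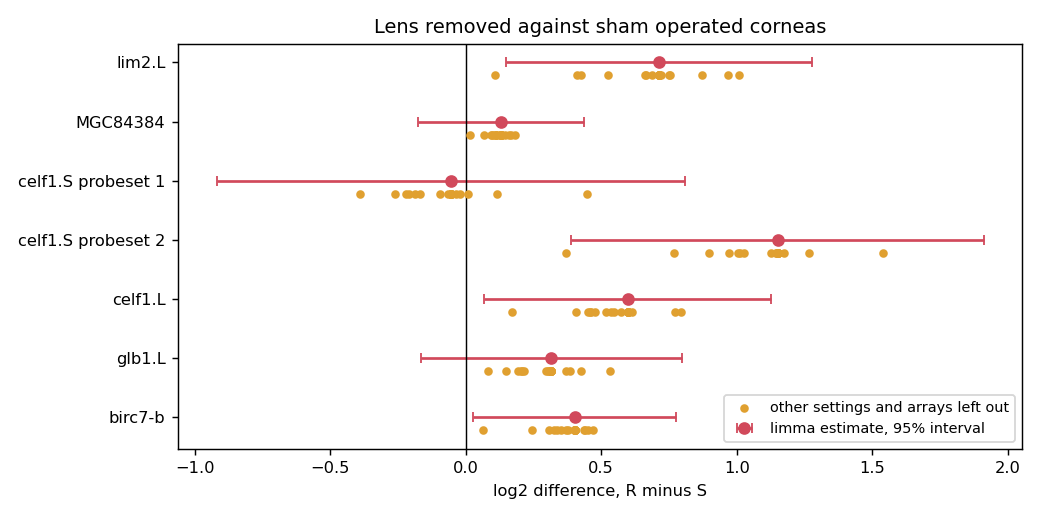
Log2 difference in intensity between corneas undergoing CLT (R) and sham operated corneas (S) for the 7 member probesets, with the limma estimate and its 95% interval in red and, as yellow points, the estimates under other settings or with arrays left out. In the fit over all 3 groups, the intervals of lim2.L, the second celf1.S probeset, celf1.L and birc7-b lie above 0 before adjustment. That of celf1.L would not with only R and S fitted (limma, unadjusted p = 0.060). The points of the first celf1.S probeset fall on both sides of 0.

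Single arrays decided the call of 1 member. Without R1, in which the second celf1.S probeset was lowest, its difference was 1.54 (limma, adjusted p = 0.0293), and with arrays weighted by their quality the adjusted p was 0.0487. Over 20 alternatives this adjusted p ran from 0.0293 to 0.467. For lim2.L the difference fell to 0.42 (adjusted p = 0.348) without R3, its highest R array, and over the same alternatives its adjusted p ran from 0.0707 to 0.472.

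Most members did not share the order of the R arrays seen in the crystallins. Of 11 crystallins, 10 were lowest in R2 and 7 were highest in R1 among the R arrays. Of the members, only lim2.L and MGC84384 were lowest in R2, which was the lowest R array for 32.6% of all probesets. MGC84384 lay close to the 5th percentile of each R array, so its order there says little. Both celf1.S probesets, celf1.L and glb1.L were lowest in R1 (34.5% of all probesets), and birc7-b was lowest in R3. For the members, the R mean was 0.176% to 7.86% of the lens mean and the S mean 0.124% to 6.22%. How near S came to R differed between probesets. On the first of celf1.S they were 2.99% (S) and 3.16% (R) of the lens mean, and on the second 1.67% and 4.03%. For lim2.L and MGC84384 the S values lie at the lower end of the array. Both genes give a low end of the member ranges above (0.176% for MGC84384 in R and 0.124% for lim2.L in S), and nothing further is read from their shares. For the crystallins the R mean was 0.164% to 6.27% of the lens mean. The highest of these was cryga.4.L, which read only 12.8 in L, 0.805 in R and 0.894 in S, with both cornea means below the 5th percentile. Among the crystallins, crygbl.4.S, which encodes a γ-crystallin, was called higher in R than in S, by 3.03 on the log2 scale (limma, adjusted p = 0.0119). This call was lost without S4 (adjusted p = 0.0602), with only R and S fitted (0.0827) and with a replicate block, which also sets S4 aside (0.109).
R2 was also the highest and R3 the lowest R array for 13 of 13 retina markers, and R1 was the lowest for 7 of 8 markers of corneal stroma. The part of these tissues in the order of the member values was not tested.

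**Figure D3:**
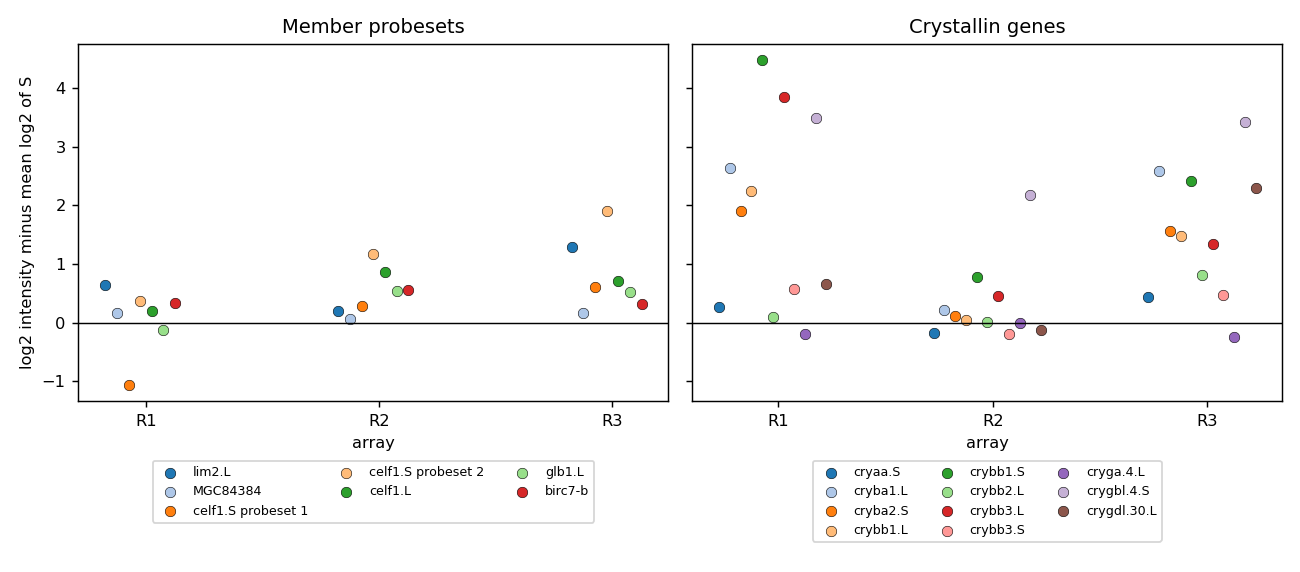
Log2 intensity of each R array above the mean of the sham operated corneas, with 1 point per probeset, for the 7 member probesets (left) and 11 crystallins (right). Crystallins are low in R2 beside R1 and R3, whereas both celf1.S probesets, celf1.L and glb1.L are lowest in R1.

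Over the 6 cornea arrays, the log2 values of lim2.L and MGC84384 had a Pearson correlation of 0.889, those of the second celf1.S probeset and glb1.L one of 0.875, and those of celf1.L and birc7-b one of 0.825. The celf1.S probesets had 0.487 with each other. These are descriptions over 6 arrays that share their normalisation and hold both groups. That of lim2.L with MGC84384 rests on values at the lower end of the array, 0.914 to 2.39 and 0.954 to 1.09.

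The genes whose pattern over all 9 arrays came closest to each member were sought by the same correlation, which mostly reflects the step from lens to cornea. For lim2.L they were ifrd2.S, the β-crystallin gene crybb2.L and the RNA-binding protein gene rbm38.L (each 0.999). For MGC84384 they were the α-crystallin gene cryaa.S, pou5f3.3.L and hao2.S (each 0.999), and for birc7-b the plasma lecithin-cholesterol acyltransferase gene lcat.L (0.999), cryaa.S and hao2.S (both 0.998). The first celf1.S probeset was closest to usp10.L (0.997), ipo5.S (0.995) and asl.L (0.994), and the second to tbx3.S (0.996), LOC398398 (0.995) and ppa2.S (0.993). The gene celf1.L was closest to uqcc2.L (0.9996), znf131.S (0.998) and flt1.L (0.996). For glb1.L the glutathione synthetase gene gss.L (0.997), the argininosuccinate lyase gene asl.L (0.996) and the proteasome subunit gene psmc5.L (0.996) came first.
Within the 6 cornea arrays alone, other genes took these places. They were mbd2.S, arf1.L and erf.S for lim2.L (0.999, 0.997 and 0.996) and mmp9.2.L, cep70.L and pou3f3.S for MGC84384 (0.998, 0.995 and 0.986). The first celf1.S probeset was nearest to egln3.L, dctn2.S and mustn1.L (0.997, 0.993 and 0.990) and the second to clp1.L, ppp1r12a.S and cenpk.L (0.993, 0.993 and 0.989). The lactate dehydrogenase gene ldha.S, clu.L and cdc27.S were nearest to celf1.L (0.992, 0.990 and 0.988), XB5870707.S, gars1.S and clpx.L to glb1.L (0.988, 0.978 and 0.977), and cacnb3.S, rarres1.S and sncb.L to birc7-b (0.985, 0.982 and 0.982). No gene was among the nearest 3 of a member both over 9 arrays and within the corneas. The cornea values of lim2.L and MGC84384 lie at the lower end of the array, which limits what their neighbours there can show.

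The members were then set beside other genes with related roles, 1 probeset for each gene, in lists that do not hold the members. Of 16 measured tetraspan membrane proteins (claudins, relatives of PMP22 and tetraspanins), 11 were lower and 3 higher in L than in S, with a median log2 difference of -1.59, where 30.6% of all probesets were called lower, 22.9% higher and the median was 0.02. Lim2.L and MGC84384, at least 784-fold and 612-fold higher in lens, stood at the other end, which follows from their choice by lens intensity. The claudin genes of epithelial tight junctions fell farthest in the lens, with -7.49 for cldn1.S (limma, adjusted p = 2.57e-08), -7.20 for cldn7.L (2.24e-07) and -6.58 for cldn4.L (1.79e-07). The higher ones were tspan7.L, cldn5.S and pmp22.L, with 2.74, 2.22 and 1.61. None was called between R and S, and the smallest p belonged to emp2.L (-0.50, adjusted p = 0.216) and emp1.L (-0.79, adjusted p = 0.288).

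Of 20 measured lens fibre structure genes, 8 were higher and 3 lower in L than in S, with a median of 0.14, beside 22.9% and 30.6% of all probesets. With quantile or cyclic loess normalisation 10 were higher and 1 was lower, since the calls of itgb1.L and itgb1.S were lost. The N-cadherin gene cdh2.S, the cadherin of lens cells, was higher by 5.30 (limma, adjusted p = 4.85e-07), and tdrd7.L, a gene of RNA granules known from human cataract, by 4.14 (adjusted p = 0.000981). The E-cadherin gene cdh1.S was lower (adjusted p = 4.19e-08), with 0.631 in L, below the 5th percentile, and 33.6 in S. Between R and S none was called, and cdh2.L (1.44, adjusted p = 0.253) and gja1.L (0.88, adjusted p = 0.395) had the smallest p.

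Among 31 other genes of the CELF and MBNL families, the AU-rich element proteins and the deadenylation and decay machinery, 12 were higher and 11 lower in L than in S, beside 22.9% and 30.6% of all probesets, and the median was 0.24. With quantile or cyclic loess normalisation some of these lower calls were lost and none of the higher ones was. Over all alternatives, the higher call of tial1.L was lost in 7 of 20, that of pabpc1.L in 4 of 20, that of celf3.S in 1 of 20 and that of celf2.L in 1 of 19. The RNA-binding protein genes rbm24.L, rbm38.L and rbm24.S were higher by 5.48, 5.33 and 4.99 (limma, adjusted p = 1.69e-06, 4.48e-08 and 8.66e-08), differences of the size seen for celf1 (5.08 to 6.02). Zfp36.L and zfp36l1.S, whose products direct the decay of AU-rich messages, differed by -4.61 and -4.89 (adjusted p = 8.14e-07 and 6.04e-07). The list had 1 call between R and S, stau1.S, which encodes a protein that binds double-stranded RNA. It rose from 7.36 ± 1.07 in S to 18.4 ± 1.24 in R (SD, n = 3), by 1.33 on the log2 scale (limma, adjusted p = 0.00909), and its lens level was 6.48 ± 0.803. This call was lost without S4 (adjusted p = 0.0512), without R2 and S4 together (0.0755) and with a replicate block, which also sets S4 aside (0.146). The other homoeolog, stau1.L, was more intense and was not called between R and S. It read 90.9 ± 11.2 in S and 97.6 ± 13.0 in R (SD, n = 3), a log2 difference of 0.10 (limma, adjusted p = 0.871).

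Lower calls outnumbered higher ones among lysosomal genes other than glb1.L. Of 28 measured lysosomal hydrolases, membrane proteins and partners, 18 were lower and 1 was higher in L than in S, with a median of -1.16, beside 30.6% and 22.9% of all probesets. With quantile normalisation 14 were lower and 2 higher, and with cyclic loess 15 and 2. The differences of galc.L, neu1.L and sgsh.L, which are among the 18, then lost their call and turned positive. Also among the 18, manba.L lost its call in 9 of 20 alternatives and npc2.L in 7 of 19, some of them with a single array left out. The cathepsin genes ctss.S and ctsb.S differed by -5.35 and -3.20 on the log2 scale (limma, adjusted p = 4.19e-08 and 1.68e-05). The fucosidase gene fuca1.L was lower too (adjusted p = 7.10e-05), from 7.25 in S to 0.752 in L, a level below the 5th percentile. The gene ctsa.L, which encodes the protective protein that binds β-galactosidase in mammals, had a difference of -1.56 (adjusted p = 0.000269), which did not pass with quantile or cyclic loess normalisation (0.0704 and 0.0774). The single higher gene was fuca1.S, by 1.39 (adjusted p = 0.0130). The summed intensity of 7 leukocyte markers was 8.38 to 9.28 in L and 252 to 269 in S, and its part in these differences was not tested. No gene of this list was called between R and S, where psap.S (0.73, adjusted p = 0.0894) and fuca1.L (-1.55, adjusted p = 0.0944) came nearest.

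Of 19 measured inhibitors of apoptosis, caspases and their regulators, 11 were lower and 4 higher in L than in S, with a median of -1.19, beside 30.6% and 22.9% of all probesets, while birc7-b stood at 7.82. The median over probesets with a mean of at least 4 in any group was -0.62. The initiator and effector caspase genes casp10.L and casp6.L had differences of -3.62 and -4.51 (limma, adjusted p = 8.36e-07 and 4.36e-05), and the inflammatory caspase gene casp1.L was lower (adjusted p = 1.23e-06) with 0.778 in L, below the 5th percentile, and 41.7 in S. The probesets of the other homoeologs read below the array medians in both groups, so they cannot show whether these share the fall. Casp10.S, with means of 1.57 in L and 1.12 in S, was called higher in L (0.49, limma, adjusted p = 0.0177). Casp1.S, with 1.34 in L and 1.38 in S, was not called (-0.04, adjusted p = 0.817). The higher genes of the list differed by less than 1 on the log2 scale, among them birc5.S (0.91) and birc5.L (0.53), which encode the inhibitor of apoptosis protein survivin. With quantile or cyclic loess normalisation 8 were called lower. No higher call was left without S3 or S4 or when 8 was added before log2. None was called between R and S, and casp8.L (-0.94, adjusted p = 0.203) and casp9.S (0.67, adjusted p = 0.309) had the smallest p.

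**Figure D4:**
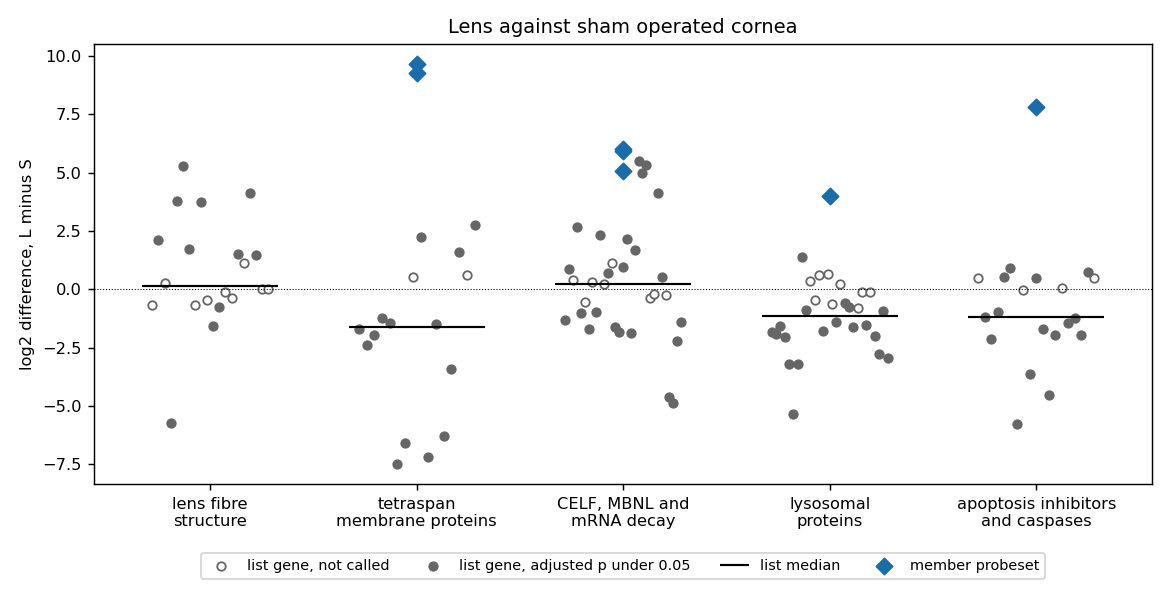
Log2 difference in intensity between lens (L) and sham operated corneas (S) for the genes of 5 lists, with 1 point per gene, filled where limma gave an adjusted p under 0.05, a bar at the list median and diamonds for the member probesets, which are in none of the lists (those of lim2.L and MGC84384 have no exact height, because their S values lie at the lower end of the array). The members were chosen by lens against cornea intensity, so their height follows from that choice. They stand above every gene of the tetraspan, lysosomal and apoptosis lists, and the celf1 diamonds lie beside rbm24.L and rbm38.L. The gene birc7.S is in no list and is not shown.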

How the data were processed

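RNA from the 9 pools was amplified with the NuGEN Ovation system and hybridised to 1 array each. The deposited values are linear intensities, which the authors computed with RMA in GenePattern (background and normalisation options and versions: not given in the sources used here). Of 15611 probesets, 135 controls were left out and no filter was used. The annotation gave 1 symbol for 9296 probesets, several for 195 and none for 5985. The log2 intensities of the groups entered limma 3.58.1 in R 4.3.3 (lmFit and eBayes, 3 groups, 6 residual degrees of freedom, two-sided, Benjamini-Hochberg over 15476 probesets, threshold 0.05), with a script tested on simulated data. Statmod 1.5.0 served the array weights, and python 3.11.15 the tables. The number of arrays limits the precision. List genes were matched by symbol, each homoeolog apart, with the probeset of highest mean. Members, lists and tests were chosen with earlier results of these data known. Named genes are the members, the 3 closest correlates, the list genes with the largest lens differences or smallest R against S p, and others chosen after their values were seen (birc7.S, ctsa.L, fuca1.S, zfp36.L, zfp36l1.S, birc5, itgb1, galc.L, neu1.L, sgsh.L, manba.L, npc2.L, tial1.L, pabpc1.L, celf2.L, celf3.S, stau1.L, casp10.S, casp1.S, cryga.4.L, nrl.S and the higher tetraspan genes). Alternatives were offsets of 1 and 8 before log2, quantile and cyclic loess normalisation, a filter at a mean of 4, controls kept, array weights, 2 groups only, eBayes with a trend and robust option, a replicate block and each array left out. The real-time PCR and in situ data were not analysed here.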

Additional observations from a re-analysis of the deposited data

How the results depend on the processing

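None of the member probesets was called between R and S in any alternative but array weights and leaving out R1, where 1 was, so that the number ran from 0 to 1 on leaving out single arrays. The count over all probesets, 174, was 638 with array weights, 80 where L stayed out of the fit and 334 when 8 was added before log2. It ran from 60 (without S4) to 297 (without R2), was 79 without S1, and was 49 without R2 and S4 together, an alternative added after the data were seen. The labels do not say whether arrays of the same number belong together, and the main fit did not pair them. Correlations of deviations between arrays of the same number were -0.10 to 0.13. Between L and R they were 0.022, 0.133 and 0.091 for numbers 1, 2 and 3, beside -0.125 to 0.018 for different numbers. Whether L and R are paired was not tested. With a replicate block the count was 13 with no member among them, while the difference was 0.87 for lim2.L and 1.03 for the second celf1.S probeset. S4 shares its number with no other array, so the block also takes it out of the comparison of R with S and leaves fewer residual degrees of freedom. The difference of the first celf1.S probeset changed sign when 8 was added (0.0071), without R1 (0.45) and without S3 (0.12), and ran from -0.39 to 0.45 on leaving out single arrays. That of the homoeologs changed sign with the second celf1.S probeset (0.55), and the cause was not tested. The other 6 probesets kept their sign in all 20 alternatives. Lens against sham differences of the members kept their direction throughout, while those of itgb1.S, galc.L, neu1.L and sgsh.L turned with quantile and cyclic loess normalisation. Quantile normalisation moved the median over all probesets from 0.02 to 0.14. Cornea values of lim2.L and MGC84384 at the lower end of the array limit what can be said of them.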
